A study of Mus musculus with 6 samples.

Results

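Calr, Canx, Hspa5, Hsp90b1, Pdia3, Pdia4, Pdia6, Xbp1, Ern1 and Atf4 encode the main chaperones of the endoplasmic reticulum (ER) and part of the machinery that senses unfolded proteins there. Every probe set (a group of short array probes read as 1 value) that the platform annotation assigns to 1 of these symbols alone was taken, which gave 29 probe sets for 10 genes among 45037 probe sets for 18193 genes. Of the 29 probe sets, 25 passed a filter on low values (log2 intensity of 4 or more on at least 3 arrays, whatever the group) and were tested with 18188 in all. The 4 that did not pass were 2 of Ern1, 1 of Pdia4 and 1 of Pdia6, all between 1.93 and 2.42 on every array.

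The arrays (Affymetrix Mouse Genome 430 2.0) measured microdissected adrenal medulla of male C57/Bl6 mice. In 3 mice the aorta had been narrowed 8 weeks earlier by transverse aortic constriction (TAC), which loads the left heart with pressure, and 3 mice had had a sham operation. The sham group and the TAC group share strain, sex, dissection and RNA amplification in 2 rounds from the 3′ end, and no genetic change or drug is named. Each array held RNA from both medullae of 1 animal, so the 3 arrays of a group are separate animals, and the animals' age is not given. The comparison asks which transcripts of the medulla differ under cardiac pressure overload. Values are log2 intensities, differences are TAC minus sham on that scale, n is 3 arrays in each group, and errors given as SE are standard errors from limma. Adjusted p-values are limma's, with Benjamini-Hochberg adjustment over all 18188 probe sets.

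Chromaffin cells of the medulla make granule proteins, peptide hormones and the enzyme dopamine beta-hydroxylase in the ER, where chaperones fold them before export. Calnexin and calreticulin hold glycoproteins through their sugar chains, BiP (Hspa5) and GRP94 (Hsp90b1) bind unfolded chains, and the protein disulfide isomerases form and exchange disulfide bonds. When unfolded proteins build up, the membrane sensor IRE1 (Ern1) splices the Xbp1 transcript, PERK raises translation of Atf4, and ATF6 is cut to release a transcription factor, and together these induce chaperone and degradation genes. Much of this response runs through splicing and translation, which the intensity of a probe set does not read.

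The tissue label held against its defining markers on all 6 arrays. Th lay between 12.32 and 13.74, Dbh between 12.20 and 13.04, Pnmt between 14.05 and 14.52 and Chga between 13.97 and 14.77. Cortex markers varied from array to array, with the mean of 8 measured markers between 6.65 and 9.23 after TAC and between 6.66 and 10.51 after sham. Star, Cyp11a1 and Cyp11b1, which serve steroid synthesis, were highest in TAC 1 (9.23, 7.38 and 8.26) and sham 3 (10.81, 11.10 and 9.999) of their groups, and the part of carried-over cortex in the members' values was not tested. The 3′ bias of each array was followed by how far the Gapdh control at the 3′ end reads above that at the 5′ end. This measure grows as transcripts are shortened, and it does not tell the state of the RNA from the amplification. It was 4.71, 3.67 and 3.98 in TAC 1, 2 and 3 and 5.15, 3.08 and 2.88 in sham 1, 2 and 3 (difference 0.42, exact 2-sided permutation p = 0.6, where the design cannot go below 0.1). TAC 1 and sham 1 therefore carried the strongest 3′ bias of their groups. Results that turn on them are given below with all arrays and without TAC 1, sham 1 or both.

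Several of the chaperone promoters hold a match to the same regulatory sequence, and they are shown here so that the array values can be read beside them. The ER stress response element reads CCAAT and, 9 bases on, CCACG, where the first part is bound by the general factor NF-Y and the last by ATF6 or XBP1. It was searched on both strands of 300-base windows (250 bases before to 50 after a gene's start, RefSeq, GRCm38.p6), and all 10 members had a window. Of all 32851 windows, 39 held a match (0.119%), which lay in 37 of 27025 genes (0.137%). Of the 10 members, 5 held a match, which are Calr, Canx, Hspa5, Hsp90b1 and Pdia6. Hsp90b1 held 2 matches and the others 1 each. The element is known from chaperone genes such as Hspa5, so the count among the members is a description and enrichment was not tested. Each match is given below 5′ to 3′ in the direction of the element, with the fixed letters of the element in capitals.
Calr, chr8:84847075-84847093: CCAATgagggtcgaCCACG
Canx, chr11:50325800-50325818: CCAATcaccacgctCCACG
Hspa5, chr2:34772025-34772043: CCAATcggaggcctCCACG
Hsp90b1, chr10:86705533-86705551: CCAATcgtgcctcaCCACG
Hsp90b1, chr10:86705638-86705656: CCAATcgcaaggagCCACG
Pdia6, chr12:17266491-17266509: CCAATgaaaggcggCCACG
The match lies on the strand opposite to the gene in Calr, 144 to 162 bases before its start, and in 1 of the 2 of Hsp90b1, 89 to 107 bases before its start. It lies on the gene's own strand in Canx (127 to 145 bases before the start), Hspa5 (47 to 65), Pdia6 (80 to 98) and the other of Hsp90b1 (194 to 212). No member window held ERSE-II (ATTGG, 1 base, CCACG, in 0.0365% of all windows), the unfolded protein response element TGACGTGG (0.676%), the ATF4 element TGATGNAA (3.97%) or the cyclic AMP element TGACGTCA (1.79%), so no match overlapped another motif. A match is a description of letters, and binding was not measured.

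The 250 bases before the start are printed for Calr and Hsp90b1, whose differences had opposite signs, and for Hspa5, which encodes the chaperone through which the element is best known. Capitals mark the fixed letters of the matches, read on the gene's strand.
Calr, GRCm38.p6 chr8:84846932-84847181, minus strand: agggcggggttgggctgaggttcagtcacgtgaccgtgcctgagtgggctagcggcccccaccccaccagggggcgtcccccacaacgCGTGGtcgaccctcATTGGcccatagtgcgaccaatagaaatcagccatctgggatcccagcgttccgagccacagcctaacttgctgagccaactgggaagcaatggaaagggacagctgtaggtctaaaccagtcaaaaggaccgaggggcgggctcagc
Hspa5, GRCm38.p6 chr2:34771840-34772089, plus strand: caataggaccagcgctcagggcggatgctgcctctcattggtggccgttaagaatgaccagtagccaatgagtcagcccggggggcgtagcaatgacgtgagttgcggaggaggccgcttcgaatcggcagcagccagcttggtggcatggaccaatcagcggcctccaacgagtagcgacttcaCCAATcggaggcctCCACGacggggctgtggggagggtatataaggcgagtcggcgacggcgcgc
Hsp90b1, GRCm38.p6 chr10:86705445-86705694, minus strand: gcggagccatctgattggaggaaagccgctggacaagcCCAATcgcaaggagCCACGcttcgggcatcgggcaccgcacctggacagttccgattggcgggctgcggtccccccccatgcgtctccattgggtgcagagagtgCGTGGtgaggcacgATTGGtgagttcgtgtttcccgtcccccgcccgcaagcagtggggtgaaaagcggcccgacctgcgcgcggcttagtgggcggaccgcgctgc
The 5 genes with a match had differences of 0.88 (Calr), 0.02 (Canx), -0.20 (Hspa5), -0.93 (Hsp90b1) and -0.60 (Pdia6) at their brightest probe sets. The 5 members without a match lay at -0.80 (Pdia3), -0.50 (Pdia4), 0.84 (Ern1), 0.59 (Xbp1) and 0.49 (Atf4). Both signs occurred with the element and without it. Of the 10 listed ER genes with the element, the other five were Creld2, a secreted ER stress protein gene, at 0.26, Dnajc3, a BiP co-chaperone gene, at -0.30, Ero1b, an ER oxidase gene, at -0.28, and Syvn1, the ubiquitin ligase gene of ER degradation, at 0.92. Derl3 stayed below the filter.

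No direction was common to the 10 genes at their brightest probe sets. No member passed the adjusted threshold of 0.05 (0 of 25 probe sets, 0% of all tested probe sets), with adjusted p-values from 0.465 to 0.998. At the brightest probe set of each gene 5 members lay above sham and 5 below, with a median difference of -0.09 against 0.09 over all 10181 tested genes. This median turned with single arrays, from -0.44 without sham 1 and -0.40 without TAC 2 to 0.15 without sham 2 and 0.28 without TAC 1, and it was 0.17 with the Gapdh difference as a covariate. An unadjusted limma p under 0.05 was reached by 6 of 25 probe sets, where 6.94% of all tested probe sets reached it. Of the 6, 4 lay higher (4.65% of all tested were higher in this way) and 2 lower (2.29%). The 6 came from 4 genes (the 3 of Calr, 1 each of Ern1, Hsp90b1 and Atf4), and the 3 of Calr read the same transcript. Every TAC array lay above every sham array at 5 of the 25 probe sets (9.01% of all tested), 3 of them of Calr, and below at 3 (4.01%). Counted by gene at the brightest probe set, 2 of 10 had an unadjusted limma p under 0.05 (7.29% of all tested genes). The groups did not overlap at 3 of 10 (14.2% of all tested genes). The members were chosen with results known, so these counts are a description. The split of all probe sets with an unadjusted p under 0.05 depended on scaling, at 67.0% higher as deposited, 43.7% after cyclic loess, 50.7% after median centring and 56.3% after quantile normalization. With limma's array weights, which down-weight arrays that deviate, 7 of 10 members passed the adjusted threshold, as did 36.8% of all tested probe sets. These were Calr (0.84), Ern1 (0.64) and Atf4 (0.85) above sham and Hsp90b1 (-1.37), Pdia3 (-1.46), Pdia4 (-0.77) and Pdia6 (-1.003) below, and that fit rests mostly on TAC 3, sham 2 and sham 3. RNA was taken from whole medulla, so fewer cells of a type and less RNA per cell cannot be told apart in any of these values.

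**Figure D1:**
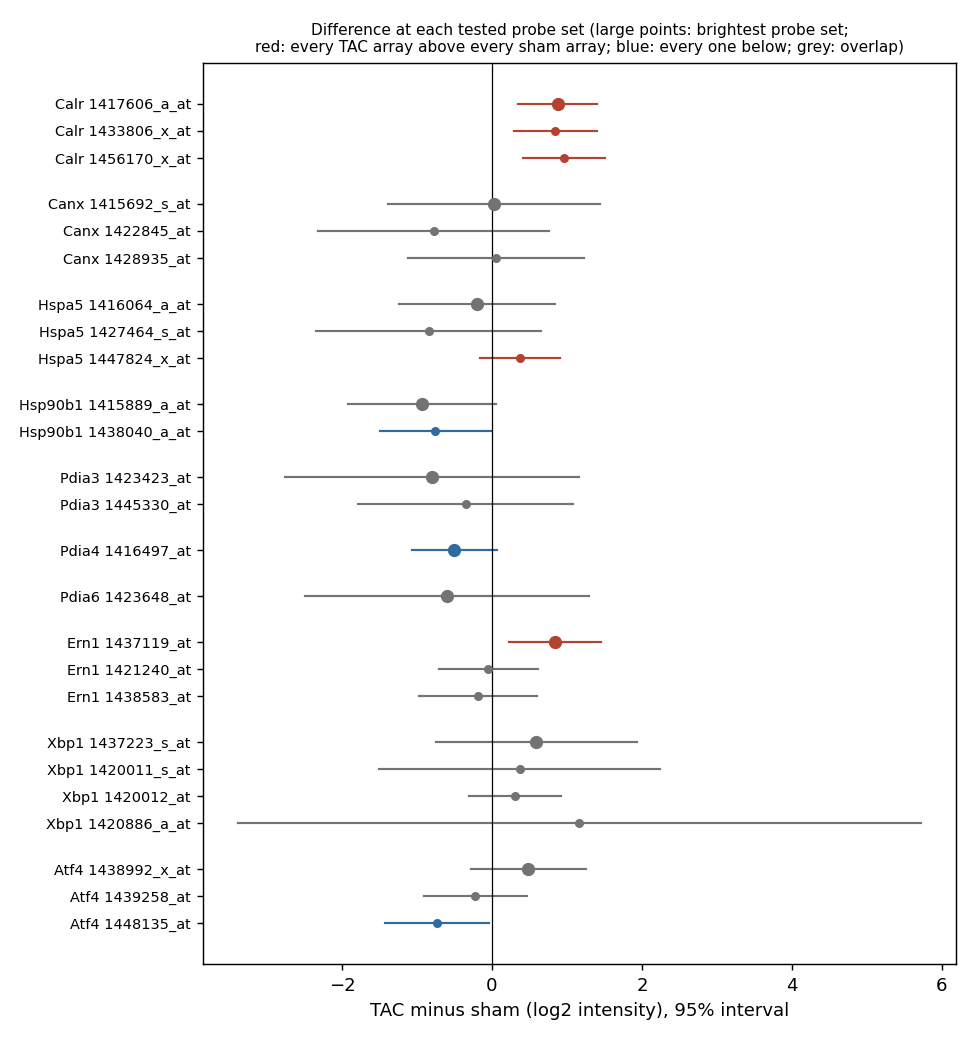
Difference of TAC minus sham in log2 intensity (horizontal axis) at each of the 25 tested probe sets (vertical axis, grouped by gene), with the 95% interval of the limma fit from 3 arrays per group. Large points are the brightest probe set of a gene. The 3 probe sets of Calr lie together between 0.85 and 0.96, while those of Hspa5, Ern1 and Atf4 fall on both sides of 0.

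Calr, which encodes the calcium-binding lectin chaperone calreticulin, was the member with the closest agreement between probe sets. Its brightest probe set, 1417606_a_at, read 11.93, 12.18 and 11.94 after TAC and 11.20, 11.00 and 11.20 after sham. The second, 1433806_x_at, read 9.45, 9.56 and 9.37 against 8.78, 8.37 and 8.71, and the third, 1456170_x_at, read 9.68, 9.70 and 9.34 against 8.66, 8.51 and 8.68. All TAC arrays were above all sham arrays at each of the 3, and the arrays of a group lay within 0.41 of each other. The difference was 0.88 ± 0.22 SE at the brightest (1.84-fold, 95% interval 0.35 to 1.41, limma adjusted p = 0.475), 0.85 ± 0.23 at the second (adjusted p = 0.511) and 0.96 ± 0.22 at the third (adjusted p = 0.465). None of these passed the threshold. The suffix x marks probes that may also bind other transcripts and the suffix a a set that reads several transcripts of 1 gene, and which probes the 3 sets share is not given in the sources used here.

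Among the 822 genes that had 3 tested probe sets, as Calr has, the 3 differences spanned 0.76 in the median gene and 0.11 in Calr. A span no wider than that of Calr was found in 12 genes (1.46%), and 269 (32.7%) had the same sign at all 3. In 7 genes (0.852%), Calr among them, every TAC array lay above every sham array at all 3 probe sets, and in 1 gene (0.122%) every one lay below. Calr was singled out with these readings known, so its place in these counts is a description. Its brightest probe set kept its sign in each of the 17 alternative settings that follow 1 probe set, between 0.77 and 0.96. It was 0.88 with the Gapdh difference as a covariate and 0.96 without TAC 1 and sham 1.

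Canx, which encodes calnexin, the membrane-bound partner of calreticulin, did not share this pattern. Its brightest probe set read 11.63, 13.39 and 13.07 after TAC and 11.88, 13.19 and 12.95 after sham. The low value of each group was the array with the strongest 3′ bias, and the groups overlapped throughout. The difference was 0.02 ± 0.58 SE (95% interval -1.39 to 1.44, adjusted p = 0.998), so neither a 2-fold rise nor a 2-fold fall is excluded by the interval. The other two Canx probe sets lay at 0.05 ± 0.48 and -0.78 ± 0.63. The sign of the brightest turned without sham 1 (-0.37), without TAC 2 (-0.32) or without TAC 3 (-0.16), and the difference was 0.56 without TAC 1. It was 0.16 without both TAC 1 and sham 1 and 0.32 with the Gapdh difference as a covariate.

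**Figure D2:**
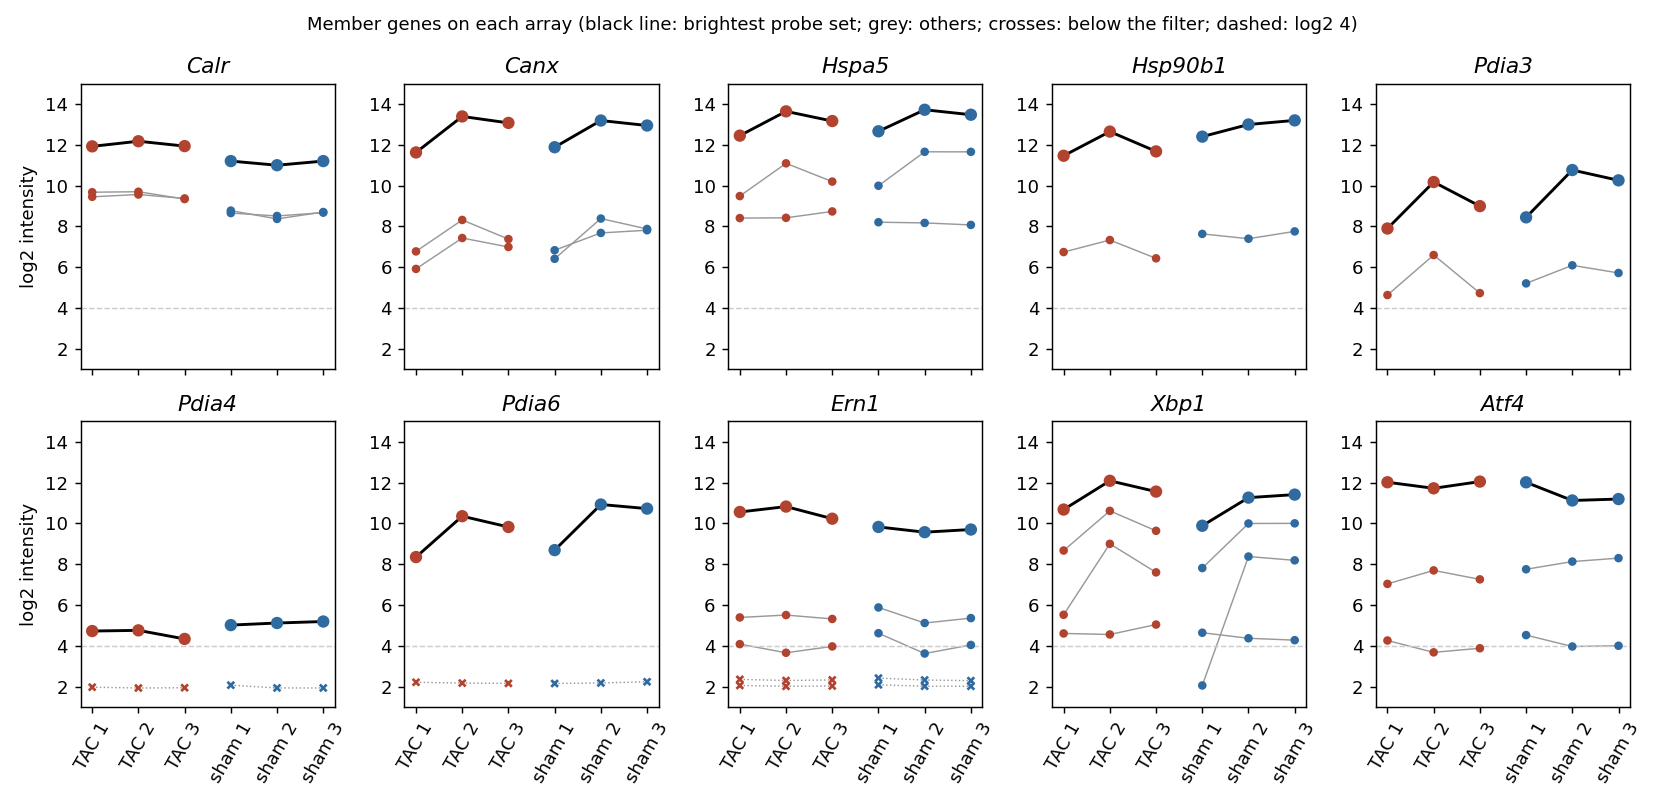
Log2 intensity (vertical axis) of every probe set of the 10 genes on the 6 arrays (horizontal axis, TAC in red, sham in blue). The brightest probe set of each gene is drawn in black, others in grey, and those below the filter as crosses. Calr is flat within each group with a step between them, whereas the brightest probe sets of Canx, Hspa5, Hsp90b1, Pdia3, Pdia6 and Xbp1 dip in TAC 1 and sham 1.

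Hspa5, the gene of BiP, the ER member of the Hsp70 family and the usual gauge of ER stress, gave 3 readings that did not share a sign. The brightest probe set read 12.45, 13.64 and 13.17 after TAC and 12.66, 13.72 and 13.48 after sham (difference -0.20 ± 0.43 SE, 95% interval -1.24 to 0.84, adjusted p = 0.988). The groups overlapped, and the lowest array of each was again TAC 1 or sham 1. A second probe set lay at -0.84 ± 0.62 (adjusted p = 0.934). The third, 1447824_x_at, read 8.41, 8.42 and 8.73 against 8.21, 8.17 and 8.07, with all TAC arrays above all sham arrays (0.37 ± 0.22, adjusted p = 0.882). The brightest probe set lay at -0.51 without sham 1, -0.48 without TAC 2, -0.11 without sham 3, 0.12 without TAC 1, 0.02 without sham 2 and 0.02 with the Gapdh difference as a covariate. Without both TAC 1 and sham 1 it lay at -0.19.

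Hsp90b1, the gene of GRP94, the ER member of the Hsp90 family, lay below sham at both probe sets. The brightest read 11.46, 12.65 and 11.68 after TAC and 12.40, 13.00 and 13.20 after sham. TAC 2 was above sham 1, so the groups overlapped at this probe set. The difference was -0.93 ± 0.40 SE (0.523-fold, 95% interval -1.92 to 0.05, adjusted p = 0.734). The second read 6.74, 7.33 and 6.44 against 7.63, 7.40 and 7.76, with every TAC array below every sham array (-0.76 ± 0.30, adjusted p = 0.706). The brightest kept its sign in 17 of 17 alternative settings, between -1.37 and -0.70, and was -0.93 without TAC 1 and sham 1.

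The 3 disulfide isomerase genes lay below sham at all 4 tested probe sets. Pdia3 encodes ERp57, the isomerase that works with calnexin and calreticulin. It read 7.90, 10.18 and 8.995 after TAC and 8.44, 10.77 and 10.26 after sham (-0.80 ± 0.80 SE, 95% interval -2.75 to 1.15, adjusted p = 0.972), and its second probe set lay at -0.35 ± 0.59. Pdia6, which encodes the isomerase P5, read 8.35, 10.36 and 9.83 against 8.69, 10.93 and 10.73 (-0.60 ± 0.78 SE, adjusted p = 0.980). In both genes the arrays of 1 group spanned 2.00 to 2.32, more than the difference between groups. Leaving out TAC 1 brought Pdia3 to -0.24 and Pdia6 to -0.03, and leaving out sham 1 brought them to -1.49 and -1.32. Without both TAC 1 and sham 1 they lay at -0.93 and -0.74, and with the Gapdh difference as a covariate at -0.34 and -0.14. They lay at -1.38 and -1.03 without TAC 2 and at -0.33 and -0.20 without sham 2, and Pdia6 at -0.30 without sham 3. Pdia4, which encodes ERp72, was only a little above the filter, at 4.73, 4.76 and 4.34 against 5.02, 5.12 and 5.19. Every TAC array of Pdia4 lay below every sham array (-0.50 ± 0.23 SE, 95% interval -1.06 to 0.06, adjusted p = 0.766), and its difference was -0.32 on the scale of log2(value + 16), which shrinks low values.

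The sensor gene Ern1 (IRE1 alpha) lay higher after TAC at its brightest probe set and not at the others. Probe set 1437119_at read 10.56, 10.83 and 10.23 after TAC and 9.83, 9.57 and 9.70 after sham, with no overlap (0.84 ± 0.25 SE, 1.79-fold, 95% interval 0.23 to 1.45, adjusted p = 0.560). The other two tested probe sets read 5.12 to 5.88 and 3.62 to 4.62 over the 6 arrays and lay at -0.05 ± 0.27 and -0.19 ± 0.32. The mean of the 3 gave 0.20. The brightest kept its sign in 17 of 17 alternative settings and was 0.89 without TAC 1 and sham 1.

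Xbp1, whose transcript IRE1 splices, lay above sham at all 4 probe sets, with wide intervals. The brightest read 10.68, 12.09 and 11.56 after TAC and 9.89, 11.27 and 11.42 after sham (0.59 ± 0.55 SE, 95% interval -0.75 to 1.93, adjusted p = 0.960). The others lay at 0.37 ± 0.77, 0.30 ± 0.25 and 1.17 ± 1.87. The last of these, 1420886_a_at, read 5.52, 9.003 and 7.60 against 2.06, 8.38 and 8.19, so sham 1 alone was below the filter and set its wide interval. The brightest probe set lay at 0.10 without sham 1, 0.27 without TAC 2 and 0.97 without TAC 1. Spliced and unspliced Xbp1 were not told apart here, since the files do not say which form a probe set reads.

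Atf4, the transcription factor gene of the PERK branch, was read in opposite directions. Its brightest probe set, 1438992_x_at, read 12.02, 11.72 and 12.05 after TAC and 12.02, 11.13 and 11.20 after sham, where sham 1 reached the TAC range (0.49 ± 0.32 SE, adjusted p = 0.904). The difference was 0.77 without sham 1 and 0.73 without TAC 1 and sham 1. Probe set 1448135_at read 7.04, 7.70 and 7.26 against 7.75, 8.13 and 8.30, with every TAC array below every sham array (-0.73 ± 0.29, adjusted p = 0.702). The third lay near the filter at -0.22 ± 0.28. The mean of the 3 gave -0.16, so the sign of Atf4 rests on the choice of probe set.

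Of the 8 members with several tested probe sets, 4 had 1 sign throughout (Calr and Xbp1 higher, Hsp90b1 and Pdia3 lower) and 4 had both signs (Canx, Hspa5, Ern1 and Atf4). The members also differed in how far they followed the 3′ bias. At each brightest probe set, the array with the strongest 3′ bias was read against the mean of the rest of its group. Pdia6 was lower by 1.74 (TAC) and 2.14 (sham), Pdia3 by 1.69 and 2.07, and Canx by 1.61 and 1.19. The same reading was 0.95 and 0.93 for Hspa5, 1.15 and 1.45 for Xbp1 and 0.70 and 0.70 for Hsp90b1. It was 0.13 and -0.10 for Calr, -0.18 and 0.14 for Pdia4 and -0.03 and -0.19 for Ern1. Atf4 went the other way at its brightest probe set, at -0.13 and -0.86, which was thus higher in TAC 1 and sham 1 than in the rest of their groups. Dimmer probe sets did not always read alike. The reading was 0.44 and 0.46 for Atf4 1448135_at and 0.14 and -0.06 for Hsp90b1 1438040_a_at. For Hspa5 it was 1.16 and 1.66 at 1427464_s_at and 0.17 and -0.08 at 1447824_x_at. Over all tested genes the median was 0.35 and 0.58. The brightest probe set was the lowest of its group in both TAC 1 and sham 1 for 6 of 10 members, where 49.7% of all tested genes were so, and 13 of 25 probe sets were, where 44.1% of all tested probe sets were. These shares are near the background. Every tested probe set of Pdia3 and Pdia6 was lowest in both arrays, and no tested probe set of Calr or Ern1 was. The part of the 3′ bias in the members' differences was not tested.

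**Figure D3:**
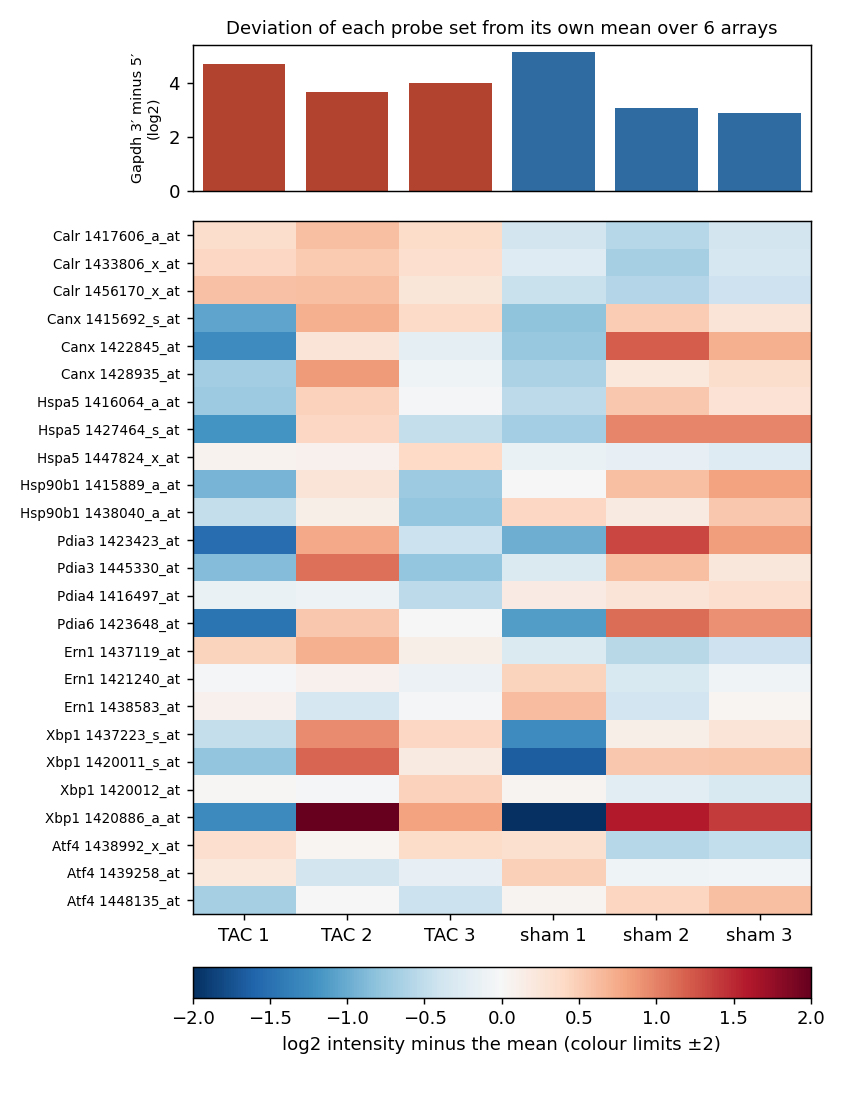
Top, the Gapdh 3′ minus 5′ difference of each array (log2, TAC red, sham blue). Below, for each of the 25 tested probe sets (rows) the log2 intensity on each array (columns) minus the mean of that probe set over the 6 arrays, with colours limited at 2 on either side, which sham 1 and TAC 2 of Xbp1 1420886_a_at reach. Most Canx, Hspa5, Pdia3, Pdia6 and Xbp1 probe sets are blue in TAC 1 and sham 1, while the 3 Calr rows are red in all TAC and blue in all sham arrays.

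The wider ER machinery was read from 10 lists that together hold 147 genes, of which 127 were tested, the 10 members included. Without the members, 58 of 117 genes lay above sham and 59 below (49.6% higher, where 58.7% of all tested genes were), with a median difference of -0.0013. None passed the adjusted threshold (0 of 117). An unadjusted p under 0.05 was reached by 4 higher and 3 lower genes, 5.98% of the 117, where 7.29% of all tested genes reached it. The groups did not overlap at 14 genes (12%, against 14.2%). The shares with a p under 0.05 and without overlap were near those of all tested genes, and no test over the lists was made.

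**Figure D4:**
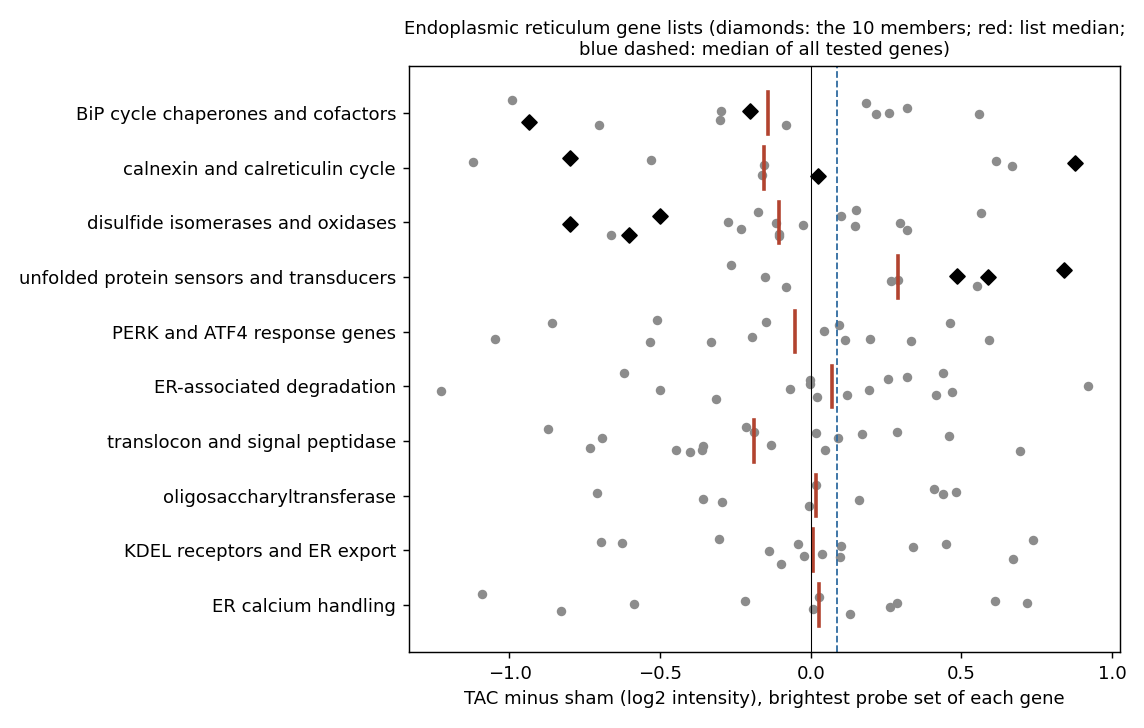
Difference of TAC minus sham in log2 intensity (horizontal axis) at the brightest probe set of every tested gene in the 10 ER lists (vertical axis). Diamonds are the 10 members, with Pdia3 in 2 lists, red bars the list medians, and the dashed line the median of all tested genes at 0.09. The members spread over nearly the whole range of the other ER genes, and the list medians lie between -0.19 and 0.29.

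Among folding factors around BiP, 5 of 12 lay higher and 7 lower (median -0.14, 0 passed). Hyou1, the gene of a nucleotide exchange factor of BiP, lay at 0.56 ± 0.23 SE (adjusted p = 0.725) with no overlap. Manf, the gene of a secreted ER stress protein, lay at -0.99 ± 0.53 (adjusted p = 0.834), or -0.64 without TAC 1 and -1.45 without sham 1. The second probe set of Hyou1 lay at 0.15. In the calnexin and calreticulin cycle 4 of 9 lay higher (median -0.15, 0 passed). Uggt1, whose product returns misfolded glycoproteins to the cycle, lay at 0.61 ± 0.44, and Ganab, a subunit gene of glucosidase II, at -1.12 ± 0.79. Uggt1 lay at 0.20 without sham 1 and 0.93 without sham 3, and Ganab at -1.95 and -0.63 without the same arrays, and their second probe sets lay at 0.25 and -0.17. Among disulfide isomerases and oxidases 6 of 17 lay higher (median -0.10, 0 passed), with Erp44 at -0.66 ± 0.27 (adjusted p = 0.717, every TAC array below every sham array) and Tmx3 at 0.32 ± 0.27. A second Erp44 probe set also lay lower, at -0.92, whereas other Tmx3 probe sets lay at -0.83 and -0.13 and the brightest at 0.18 without TAC 2 and 0.20 without sham 1.

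Of the sensors and transducers 6 of 9 lay higher (median 0.29, 0 passed), and 3 of these 6 are the members Ern1, Xbp1 and Atf4. Mbtps1, the gene of the protease that cuts ATF6, lay at 0.55 ± 0.47 and Eif2ak3, the gene of PERK, at 0.29 ± 0.42. Mbtps1 lay at 0.16 without sham 1 and 0.23 without TAC 2. Eif2ak3 read 6.40, 7.31 and 6.53 after TAC and 5.75, 6.99 and 6.64 after sham, so the groups overlapped, and the difference was -0.065 without sham 1. Response genes of PERK and ATF4 were evenly split, 7 of 14 higher (median -0.05, 0 passed). Nupr1, a stress-induced chromatin protein gene, lay at -0.86 ± 0.33 (adjusted p = 0.696, no overlap). Mthfd2, a mitochondrial folate enzyme gene, lay at 0.59 ± 0.29 at its brightest probe set and at -1.23 at the other.

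In ER-associated degradation 9 of 16 lay higher (median 0.07, 0 passed). Syvn1, the ubiquitin ligase gene whose promoter also carries the ER stress response element, read 9.34, 9.13 and 9.22 after TAC and 8.49, 8.17 and 8.28 after sham. Its groups did not overlap (0.92 ± 0.22 SE, 1.89-fold, adjusted p = 0.465), and its second probe set lay at 0.53. Vcp, the gene of the ATPase that pulls proteins out of the ER, lay at -1.23 ± 0.49 (adjusted p = 0.706, every TAC array below every sham array). With 1 array left out Vcp lay between -1.59 and -0.74 (the latter without TAC 1), and its second probe set lay at -0.43. In the translocon and signal peptidase list 7 of 17 lay higher (median -0.19, 0 passed), with the channel gene Sec61a1 at 0.69 ± 0.27 (no overlap, adjusted p = 0.696), all 4 of whose probe sets lay higher, and Spcs2, a signal peptidase subunit gene, at -0.87 ± 0.52. Spcs2 lay at -1.39 without sham 1 and -0.57 without sham 2.

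In the oligosaccharyltransferase, which attaches sugar chains, 5 of 9 subunit genes lay higher (median 0.02, 0 passed). Rpn1 lay at 0.48 ± 0.24 with no overlap, its other probe sets between 0.26 and 0.54, and Dad1 at 0.41 ± 0.25. Among KDEL receptors and ER export genes 7 of 14 lay higher (median 0.01, 0 passed). Kdelr2, whose product returns chaperones such as calreticulin and BiP to the ER, lay at 0.67 ± 0.27 with no overlap (adjusted p = 0.706) and the coat gene Sec24a at 0.45 ± 0.21. Among ER calcium genes 7 of 11 lay higher (median 0.03, 0 passed), and the calcium release channel genes Ryr2 and Ryr3 lay at 0.72 ± 0.23 (no overlap, adjusted p = 0.591) and 0.61 ± 0.31. A second Ryr3 probe set lay at -0.37, the mean of both at 0.12, and the brightest at 0.40 without TAC 3.

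Markers of other cell types that dissected medulla can hold were read beside the ER genes, since secretory cells of any kind use these chaperones. Jchain, which marks antibody-secreting plasma cells, read 6.53, 7.74 and 9.91 after TAC and 5.30, 5.75 and 5.47 after sham (2.55, adjusted p = 0.591), with no overlap. Of the 8 listed plasma cell markers 3 were tested (Jchain, Sdc1 and Ighm), and the mean of these 3 ranged from 5.63 to 7.10 after TAC and from 5.37 to 5.64 after sham. Sdc1 lay at 0.15 and Ighm at -0.16, or -0.41 at its other tested probe set, all with overlap. Mzb1, an ER co-chaperone gene of B and plasma cells, was below the filter on all arrays (2.12 to 2.19), as were Tnfrsf17, Pou2af1 and Irf4, and Igkc is not analysed here. The 3 TAC arrays spanned 3.38 in Jchain and 0.25 at the brightest Calr probe set. Fibroblast markers lay lower in 6 of 7 tested genes (median -1.40), with means from 6.12 to 7.41 after TAC and from 7.05 to 8.51 after sham. An unadjusted limma p under 0.05 was reached by 4 of the 7, all lower (57.1%, against 7.29% of all tested genes). At 3 of the 7 every TAC array lay below every sham array (42.9%, where the groups did not overlap at 14.2% of all tested genes). Neuron markers lay lower in 6 of 7 (median -0.50, means from 6.79 to 7.95 after TAC and from 7.26 to 8.26 after sham), with Map2 at -0.83 and Rbfox3 at 1.53, both without overlap. The other tested probe set lay at -0.60 for Map2 and at -0.20 for Rbfox3, both with overlap. Endothelial markers lay lower in 2 of 3 (median -1.17, means from 4.63 to 6.12 and from 5.01 to 6.35). Macrophage markers lay lower in 4 of 6, all 4 with overlap, while Csf1r lay at 1.01 without overlap and C1qb at 0.69 with overlap. The other tested Csf1r probe set lay at 1.13 and those of C1qb at -0.53 and 0.64, all with overlap. Smooth muscle and pericyte markers lay lower in 2 of 4, with Notch3 at 1.24 and Rgs5 at -0.92, both without overlap. Other tested Rgs5 probe sets lay at -0.04 with overlap and -3.02 without. Sustentacular and Schwann cell markers lay lower in 1 of 5, with Sox10 at 0.77 without overlap. No marker of these 7 lists, plasma cells included, passed the adjusted threshold. The part of these cell types in the members' values was not tested.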

How the data were processed

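Per the submitters' processing notes, the deposited intensity values were made with GCRMA (version and settings not given in the sources used here). They are linear intensities, 1 per probe set and array, and their quantiles differ between arrays. They were used after a log2 transformation, without 64 array control probe sets. The number of arrays limits the precision (median SE 0.39 over all tested probe sets).

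The 2 groups entered a limma fit (version 3.58.1, R 4.3.3, lmFit then eBayes, 2-sided, with 4 residual degrees of freedom and no covariates) on all 18188 probe sets that passed the filter. The brightest tested probe set by its mean over 6 arrays stood for a gene. The procedure was tested on simulated data with noise drawn independently for each probe set and array. Deviations shared across the probe sets of an array were not simulated. The members and gene lists were chosen with earlier results of these data known, so no test over a list is given. The rule for named genes took all 10 members with every probe set, the 2 other genes with the smallest p of each ER list, and the defining markers Th, Dbh, Pnmt, Chga, Star, Cyp11a1, Cyp11b1, Jchain, Mzb1 and Igkc. The 18 alternative settings concerned scaling, filter, floor, weights, block, probe set choice and left-out arrays, and the 2 of them on the 3′ bias were added after the data were seen.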

Additional observations from a re-analysis of the deposited data

How the results depend on the processing

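With array weights an adjusted p under 0.05 was reached by 7 of 10 members and by 6698 probe sets, the sole setting of 18 in which any did. These weights ranged from 0.143 (sham 1) to 6.11 (TAC 3), so that fit rests mostly on TAC 3, sham 2 and sham 3. The number of probe sets with an unadjusted p under 0.05, 1263 as reported, was 8749 with array weights, 3843 with the Gapdh difference as a covariate, 2507 without TAC 1 and sham 1, 2110 without a filter, 644 genes with probe sets averaged and 641 (without sham 2) to 2429 (without sham 1) with 1 array left out. With probe sets averaged 3 members lay higher in place of 5. Signs turned for Canx (-0.027 with array weights, -0.083 after cyclic loess, -0.078 after quantile normalization, -0.0035 with median centring, -0.23 with probe sets averaged, -0.37 to 0.56 with 1 array left out), Hspa5 (0.019 with the covariate, -0.51 to 0.12 with 1 array left out) and Atf4 (-0.16 averaged). They also turned for Eif2ak3 (-0.21 with array weights, -0.065 to 0.55 with 1 array left out), Mthfd2 (-0.32 averaged) and Tmx3 (-0.21 averaged). The cause was not tested. The other 26 of 32 differences followed kept their sign in every setting that gave a value, where Pdia4 and Nupr1 gave none at a mean of log2 6 and the dimmer Calr probe sets none with probe sets averaged.

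The labels do not say whether the replicate numbers pair the arrays. Deviations from the group mean correlated at 0.76 for number 1, 0.78 for number 2 and -0.22 for number 3, and not every array correlated best with its own number. TAC 1 and sham 1 also share the strongest 3′ bias of their groups, so these correlations cannot settle whether arrays were paired. With the replicate block 3005 probe sets had an unadjusted p under 0.05 and 0 an adjusted one, and Calr had an adjusted p of 0.208.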
